A study of Mus musculus with 46 samples.

Results

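Genes of the small subunit processome and of 40S subunit maturation were examined as a set of 42 members, among 13528 genes listed in both deposited tables. Members were chosen by gene symbol from their known roles, with earlier results of these data known. All 42 were listed in both tables. By role, 34 members are early processome factors and 8 are late 40S factors. Levels came from RNA sequencing of 14 libraries of cultured mouse thyroid tumour cells. There were 4 RP lines, which carry conditional mutations of Rb and p53, and 4 RPM lines, which carry those mutations and a conditional mutation of Max. In a second experiment an RPM line was transduced with an empty vector (3 libraries) or with a vector that restores Max (Max addback, 3 libraries). All 14 libraries therefore carry the Rb and p53 mutations, and no normal thyroid cells are among them. The mutations were made in neuroendocrine cells with a tamoxifen-inducible Ascl-CRE, so the lines descend from cells in which that driver was active. By the animal number in the library names, the 6 libraries of the addback experiment come from the line that is RPM replicate 2, so that experiment stands for 1 line. No source used here says whether its 3 libraries per group are separate cultures, and p-values then measure only the spread between these libraries.

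The small subunit processome is the large particle that forms on the nascent ribosomal RNA precursor in the nucleolus. Its UTP-A complex binds first, followed by UTP-B and the U3 snoRNP, whose RNA base-pairs with the precursor. Later factors release the particle, carry it to the cytoplasm and guide the last cleavage of the small subunit rRNA. Genes of ribosome assembly are classic targets of MYC, which binds the E-box CACGTG as a dimer with MAX. MNT and the MXD proteins repress from the same sites, also with MAX.

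Since most members lay on the same side of 0 in each comparison below, their promoters were searched for CACGTG, which reads the same on both strands. RefSeq windows of GRCm38.p6, from 250 bases before to 50 bases after the gene start, were found for 35 of the 42 members. The motif was present in 11 of the 35 windows, a share of 31.4% (exact 95% binomial interval 16.9 to 49.3%). It was present in 7.15% of all 32851 RefSeq windows and in 10.0% of the 13373 windows of genes listed in both tables. Dcaf13, Fbl, Nol6, Rrp12, Tbl3, Utp6 and Wdr36 had no window. In 6 of the 11 windows the motif lay after the gene start, 16 to 38 bases from it. Distances are from the RefSeq start of the window, which can differ from the end of the GENCODE gene whose coordinates are given for members below. The sites of 5 members described below are shown, on the gene strand with the motif in capitals. They are those of the late factors that hold it (Ltv1, Tsr1 and Pno1), of Utp20, and of Rrp7a, the member that rose with addback.
Ltv1: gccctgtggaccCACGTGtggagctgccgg
Tsr1: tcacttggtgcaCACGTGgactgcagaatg
Pno1: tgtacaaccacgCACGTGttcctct
Utp20: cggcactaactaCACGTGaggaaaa
Rrp7a: gtgcctgtgcacCACGTGtcctggaactgg
The Ltv1 sequence is chr10:13193092-13193121 on the minus strand, and its motif starts 29 bases after the RefSeq start. The Tsr1 sequence is chr11:74898092-74898121 on the plus strand, with the motif 25 bases after the RefSeq start. The Pno1 and Utp20 sequences, chr11:17211540-17211564 and chr10:88826765-88826789, are on the minus strand and end with their windows. The Rrp7a sequence is chr15:83122992-83123021 on the minus strand, and its motif lies at -208 from the RefSeq start. The other members with the motif were Imp4, Nol11, Utp18, Wdr46, Utp4 and Wdr43. With CACGCG, which MYC and MAX also bind, counted beside CACGTG, 48.6% of the members' windows held a match, against 25.3% of the windows of genes listed in both tables. A match describes the letters of a window and shows no binding.

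Reads over the listed genes ranged from 6738614 to 8498396 per library, so 3 reads are worth 0.353 to 0.458 CPM, the read count scaled to library size; such floors cover counting error only. Levels are CPM as the authors normalised them. Max was at 54.6 ± 8.8 CPM in RP lines (SD, n = 4), 88.2 ± 16.2 in RPM lines (n = 4), 88.5 ± 6.73 with empty vector (n = 3) and 240 ± 17.2 with addback (n = 3). Max was therefore not lower in RPM than in RP lines by reads over the whole gene, a measure that does not show whether a part of the gene is deleted. Of 11 C cell markers, 10 were listed, and their summed level was 4849 to 7041 CPM in RP lines, 4487 to 22536 in RPM lines, 5120 to 5448 in empty vector libraries and 8996 to 10495 in addback libraries. Of 10 thyroid follicle markers, Tg, Tshr, Foxe1 and Slc26a4 were listed in neither table. Those listed summed to 437 to 639 CPM in RP lines and 388 to 779 in RPM lines. With empty vector their sum was 555 to 565 CPM, and with addback 654 to 720 CPM. Of these, Nkx2-1 was at 344 to 641 CPM in the lines and 458 to 619 CPM in the addback experiment. Endothelial markers summed to 2.25 to 94.6 CPM over all libraries. Fibroblast markers summed to 17.0 to 189 CPM and leukocyte markers to 3.36 to 18.8 CPM over all libraries, with Ptprc, Col1a2 and Col3a1 listed in neither table. Y-linked genes summed to 410 to 423 CPM in the 3 empty vector libraries and to 0 to 0.257 CPM in the 3 addback libraries, against 275 CPM in RPM replicate 2. In that experiment Max addback and whatever else separates the 2 cell populations cannot be told apart. RP replicate 4 held 344 CPM of Xist beside 161 CPM of Y-linked genes, and the animal number of RPM replicate 1 is also used for tumour libraries labelled Rb/p53 mutant.

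Per length, the members spanned a 12.8-fold range in RP lines. The highest mean was that of Imp3, a component of the MPP10 complex, at 51.1 ± 9.55 RPKM (SD, n = 4), and the lowest were Riok1 at 3.98 and Dcaf13 at 3.98 RPKM. The median member stood at 10.9 RPKM. Among the U3 snoRNP proteins, Nop56 was at 29.2, Nop58 at 13.9, Rrp9 at 10.5 and Fbl, the methyltransferase of the particle, at 4.04 RPKM. Of the 50-base words of Fbl transcripts, 19.7% also occur in transcripts of other genes, and 18.7% of those of Nop56. Reads of such stretches may be lost or assigned elsewhere, so the levels of Fbl and Nop56 are uncertain. The same holds for Tbl3, which shares 37.3% of its exon bases with a neighbour (Noxo1), and for Tsr1, which shares 32.3% with Srr. The order of the members was similar in both genotypes, with a Spearman rho across the 42 genes of 0.86 between mean RPKM in RP and RPM lines.

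In RPM lines compared with RP lines, 4 members rose and none fell. They were Rrp12 and Ltv1, both late 40S factors, Rcl1 of the processome enzymes and Pwp2 of the UTP-B complex, by 1.05 to 1.37 on the log2(CPM + 1) scale. Called means an adjusted p under 0.05 by limma, with Benjamini-Hochberg adjustment over all 14360 listed genes, of which 0.209% were called higher and 0.125% lower. Most other members leaned the same way without passing the test. The log2 change was above 0 for 40 of 42 members, with a median of 0.34 beside -0.01 over all genes, and 19 members had an unadjusted p under 0.05. For 16 members every RPM line lay above every RP line, where 4.97% of all genes did so. For 0 members every RPM line lay below every RP line, where 4.39% of all genes did so. In these bulk samples fewer cells of a type and less RNA per cell cannot be told apart.

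**Figure D1:**
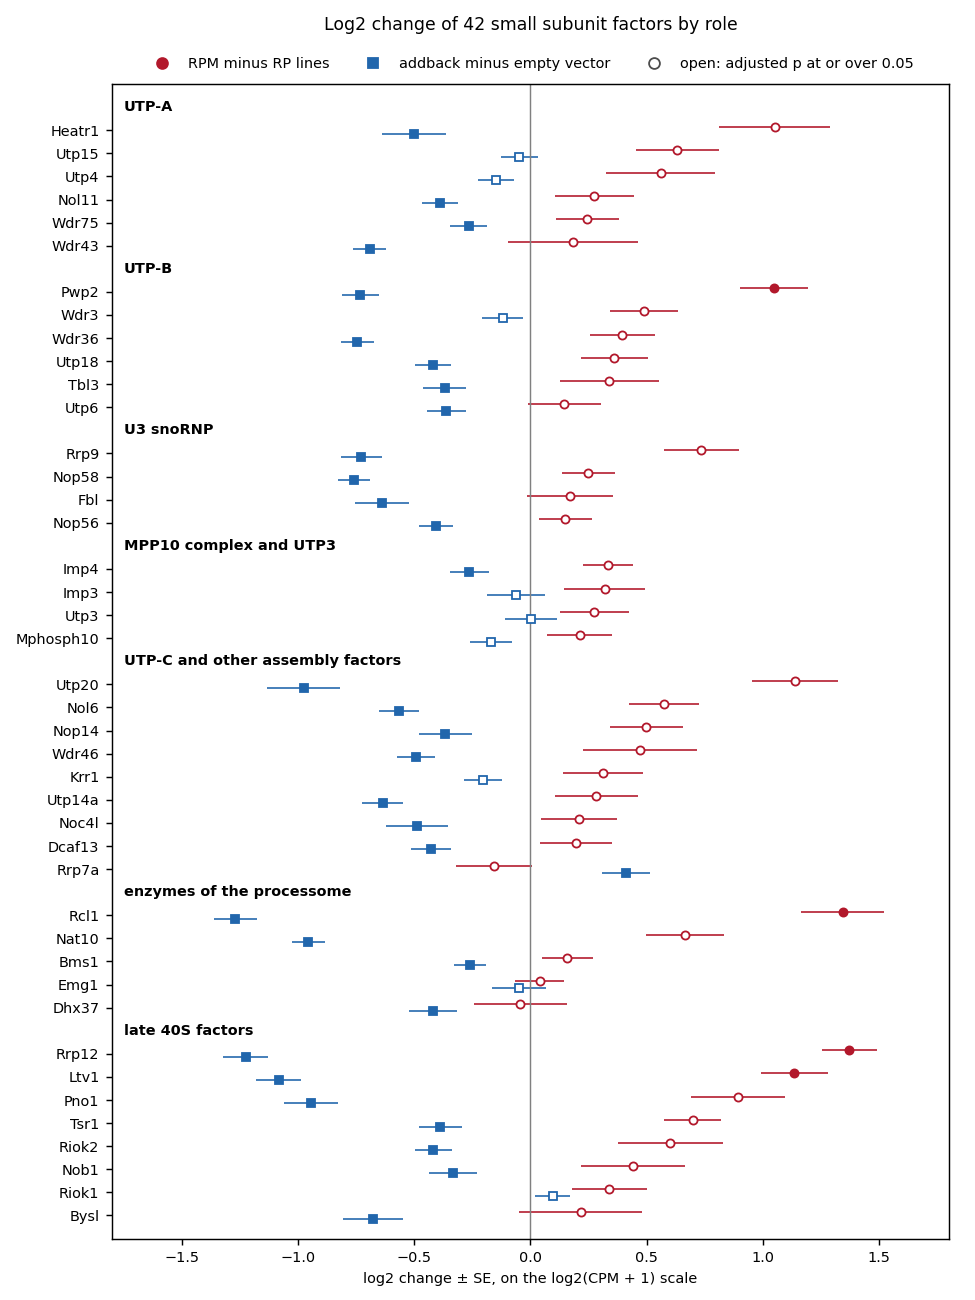
Log2 change with standard error of the 42 members, grouped by role, in RPM minus RP lines (circles; 4 libraries a group) and in addback minus empty vector (squares; 3 libraries a group), on the log2(CPM + 1) scale. Filled symbols have a limma adjusted p under 0.05; 4 circles are filled, all right of 0, and 33 squares are filled, 32 of them left of 0.

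Rrp12 is a HEAT-repeat protein needed to export and mature the small subunit precursor (chr19:41862851-41896173, minus strand). In CPM, RP replicates 1 to 4 stood at 57.9, 45.8, 50.7 and 54.1. The 4 RPM lines, in the same order of replicates here and below, were at 152, 126, 136 and 132 CPM. Its lowest RPM line lay above its highest RP line by more than the whole range of the RP lines. The log2 difference was 1.37 (SE 0.12; limma adjusted p = 0.0179).

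Rcl1 is the endonuclease-like partner of the GTPase Bms1 (chr19:29101375-29143929, plus strand). Its levels were 23.5, 16.4, 19.8 and 27.0 CPM in the RP lines and 50.3, 56.2, 59.5 and 56.5 CPM in the RPM lines. The 2 genotypes did not overlap, and the log2 difference was 1.34 (SE 0.18; limma adjusted p = 0.0338). Bms1 itself was at 95.1 ± 6.8 CPM for RP against 106 ± 9.28 CPM for RPM, with a log2 difference of 0.16 that did not pass (limma adjusted p = 0.498). Nat10, the acetyltransferase that acts on the small subunit rRNA, was at 41.8 to 54.5 CPM for RP against 58.7 to 93.6 CPM for RPM. Its groups did not overlap, yet its difference of 0.67 did not pass (limma adjusted p = 0.156). The other enzymes, the helicase Dhx37 and the methyltransferase Emg1, had differences of -0.04 and 0.04.

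Ltv1 is an assembly factor of the late particle and an export adaptor (chr10:13178140-13193168, minus strand). It was at 39.7, 45.5, 30.2 and 37.9 CPM for the RP genotype and 84.0, 92.1, 83.2 and 79.5 CPM for RPM. No RPM line overlapped an RP line, and the log2 difference was 1.14 (SE 0.14; limma adjusted p = 0.0338). Pwp2 is a WD-repeat subunit of UTP-B, which holds the early part of the precursor (chr10:78170909-78185149, minus strand). Its levels were 33.6, 33.2, 26.6 and 29.4 CPM for the RP genotype and 53.5, 70.2, 70.3 and 64.7 CPM for RPM, again with no overlap. The log2 difference was 1.05 (SE 0.15; limma adjusted p = 0.0375).

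The number of calls in the lines changed with single libraries. Without 1 library at a time, limma called 1 member without RP replicate 1, 2 without RP replicate 2, 0 without RP replicate 3, 2 without RP replicate 4, 7 without RPM replicate 1, 1 without RPM replicate 2, and 0 without RPM replicate 3 or 4. In the 3 fits with no member called, 0 of all 14360 genes were called, while 16, 17 and 17 members had an unadjusted p under 0.05. Without RPM replicate 1, 77 of all genes were called higher and 184 lower. The higher and lower calls over all genes were 1 and 6 without RP replicate 1, and 6 and 6 without RP replicate 2. Those calls numbered 13 and 4 without RP replicate 4, and 7 and 4 without RPM replicate 2. RP replicate 4 held Xist beside Y-linked genes, and the animal number of RPM replicate 1 recurs on tumour libraries labelled Rb/p53 mutant. Without both of these libraries, Rrp12, Rcl1 and Pwp2 were called, with 39 of all genes called higher and 95 lower. On the reads recovered from the CPM, DESeq2 called 14 members higher, with 350 of all genes called higher and 308 lower. edgeR's quasi-likelihood test called 1 member, Rrp12, with 1 of all genes called higher and 2 lower. The authors' deposited table calls 5 members higher (Rrp12, Ltv1, Rcl1, Utp20 and Heatr1) and none lower, with 1.72% of all genes called higher there.

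Among the early complexes, UTP-A had no called member in the lines and a median log2 difference of 0.42 over its 6 genes. Its largest difference was that of Heatr1, a subunit also linked to Pol I transcription, at 38.9 to 73.2 CPM for RP against 89.9 to 149 CPM for RPM. The Heatr1 groups did not overlap, but the RPM lines differed widely among themselves, and its difference of 1.05 had an SE of 0.24 (limma adjusted p = 0.135). In UTP-B the median was 0.38, and Wdr3, Wdr36 and Pwp2 did not overlap between the genotypes. The U3 snoRNP proteins had a median of 0.21 over 4 genes. Of these 4, only Rrp9, which binds the U3 RNA, did not overlap between the genotypes: it was at 33.0, 30.3, 25.5 and 34.2 CPM for RP against 53.6, 57.2, 55.2 and 41.6 CPM for RPM (0.74; limma adjusted p = 0.132). The 4 members of the MPP10 complex and UTP3, which cross-link early domains of the particle, had differences of 0.21 to 0.33.

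In the group of UTP-C and other assembly factors, 8 of 9 members were above 0, and the median was 0.31. Utp20, a very large scaffold protein, was at 75.8, 90.1, 47.7 and 70.5 CPM for the RP genotype and 145, 151, 160 and 159 CPM for RPM. Its groups did not overlap, and its difference of 1.14 (SE 0.18) lay just outside the threshold (limma adjusted p = 0.051). Nol6, of the UTP-C complex, was at 72.4 to 84.1 CPM for RP against 87.4 to 133 CPM for RPM, with a difference of 0.57 (limma adjusted p = 0.167). Rrp7a, another UTP-C protein, was the member with the lowest value, -0.16, and its groups overlapped.

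The late factors outside Rrp12 and Ltv1 did not pass in the lines, although all 8 late members were above 0. Pno1, the partner of the final nuclease, was at 41.0, 41.4, 32.6 and 46.9 CPM for the RP genotype and 108, 61.3, 65.7 and 74.2 CPM for RPM. Its groups did not overlap, with RPM replicate 1 far above the other RPM lines, and the difference was 0.89 (SE 0.20; limma adjusted p = 0.135). Tsr1, a GTPase-like factor that blocks early entry into translation, was at 49.0, 52.5, 45.7 and 57.7 CPM for RP against 81.2, 78.5, 95.6 and 79.5 CPM for RPM. Those groups did not overlap either, and the difference of 0.70 had an SE of 0.12 (limma adjusted p = 0.0665).

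The remaining late factors overlapped between the genotypes. Nob1, the nuclease that makes the last cut, was at 42.2, 23.8, 32.9 and 46.5 CPM for RP against 40.7, 57.5, 47.6 and 48.7 CPM for RPM. The kinase Riok2 was at 31.4, 35.2, 18.9 and 23.0 CPM for RP against 33.3, 39.6, 48.1 and 42.5 CPM for RPM, where RP replicates 3 and 4 were the low ones. The kinase Riok1 was at 37.3, 33.4, 33.0 and 46.9 CPM for RP against 48.6, 53.6, 40.4 and 48.2 CPM for RPM. Bysl, which bridges the nuclear and cytoplasmic steps, split the RPM lines: replicates 1 and 2 were at 48.1 and 43.8 CPM, and replicates 3 and 4 at 25.1 and 26.9 CPM, within the RP lines (37.7, 22.5, 27.4 and 33.0 CPM). Their log2 differences were 0.44 for Nob1, 0.60 for Riok2, 0.34 for Riok1 and 0.22 for Bysl, with limma adjusted p of 0.367, 0.268, 0.345 and 0.715.

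**Figure D2:**
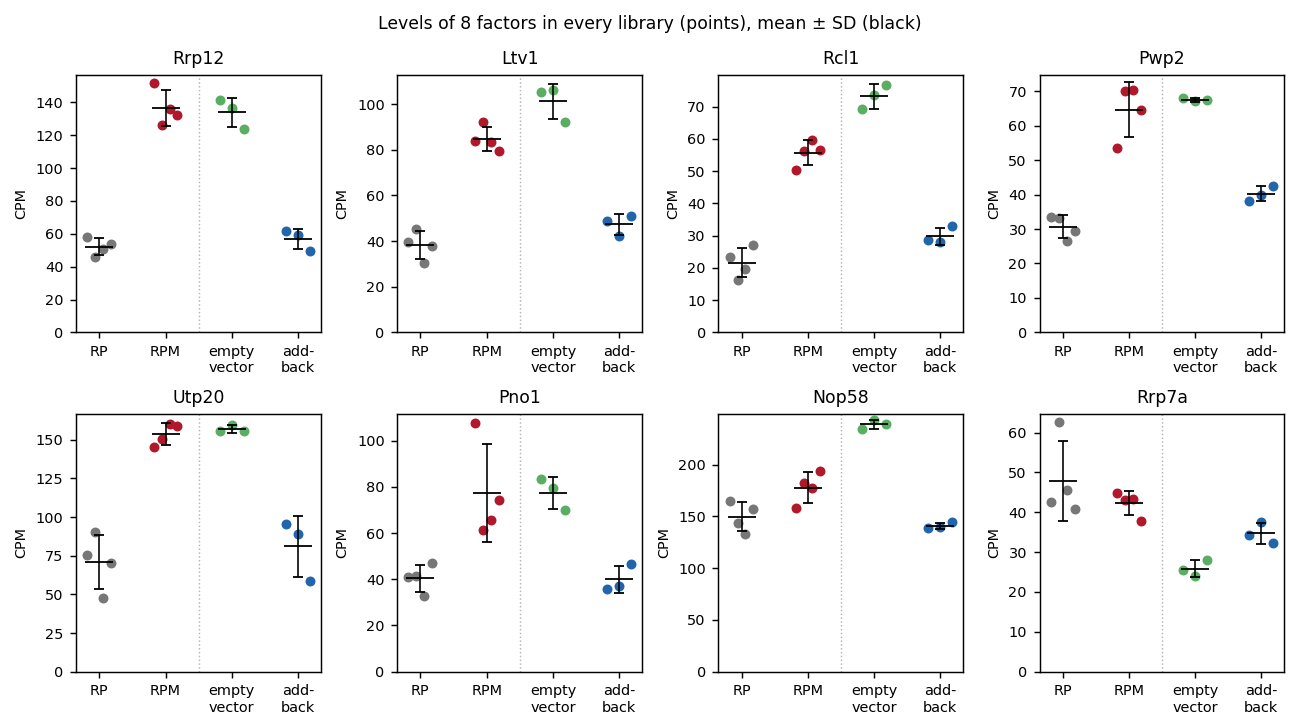
Level in CPM (vertical axes, from 0) of 8 members in each of the 14 libraries, by group; each point is 1 library, and black lines give the group mean ± SD. Rrp12, Rcl1, Ltv1 and Pwp2 are high in the RPM and empty vector libraries and low in the RP and addback libraries.

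With Max addback, 32 members fell and 1 rose, while 25.5% of all 14056 listed genes were called lower and 27.7% higher by limma. The median log2 change of the members was -0.42, beside -0.0019 over all genes. Every addback library lay below every empty vector library for 34 members, where 30.2% of genes did so, and above it for 2 members, where 31.7% of genes did so. The member that rose was Rrp7a, and the 9 that did not pass were Emg1, Utp3, Imp3, Riok1, Utp15, Wdr3, Utp4, Mphosph10 and Krr1. The authors' deposited table calls 14 members lower with addback, with 13.1% of all genes called lower there. Proliferation genes summed to 6936 to 7108 CPM with empty vector and 4653 to 5951 CPM with addback, with 6 of 12 called lower and 1 higher; 9 of 10 C cell markers were called higher. Their part in the result was not tested.

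The 4 members that had risen in the RPM lines all fell with addback, with no overlap between the groups. Rcl1 was at 69.2, 73.6 and 76.6 CPM with empty vector and 28.6, 27.9 and 32.9 CPM with addback, the largest change of the set at -1.27 (SE 0.09; limma adjusted p = 2.37e-06). Rrp12 was at 141, 137 and 124 CPM with empty vector and 61.7, 59.0 and 49.7 CPM with addback (-1.23, SE 0.10; limma adjusted p = 4.32e-06). Ltv1 was at 105, 106 and 92.4 CPM with empty vector and 48.8, 42.2 and 51.0 CPM with addback (-1.08, SE 0.10; limma adjusted p = 9.54e-06). The addback means of these genes, 29.8 ± 2.71, 56.8 ± 6.26 and 47.4 ± 4.58 CPM, can be set beside the RP means of 21.6 ± 4.59, 52.1 ± 5.12 and 38.3 ± 6.28 CPM, with the limit that the tables were normalised separately. Pwp2 moved less, from 68.2, 67.1 and 67.3 CPM to 38.3, 39.98 and 42.5 CPM (-0.73, SE 0.08; limma adjusted p = 3.71e-05). On the log2(CPM + 1) scale, the size of the fall with addback was 94.5% of the rise in the lines for Rcl1. It was 89.3% for Rrp12, 95.3% for Ltv1 and 69.9% for Pwp2. These 4 members were picked for being higher in the RPM lines, and the empty vector cells come from a line among those. The rise and the fall are therefore not independent. The addback cells also lacked nearly all Y-linked reads of the empty vector cells. How much of the rise Max itself reversed was not tested.

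All 4 U3 snoRNP proteins fell with addback, with a median of -0.68. Nop58, a core protein of box C/D snoRNPs, was at 234, 244 and 239 CPM with empty vector and at 139, 139 and 144 CPM with addback. In RPM lines Nop58 was at 158, 182, 178 and 193 CPM and in RP lines at 165, 144, 133 and 157 CPM. The empty vector values were thus above those of every other library, with the limit that the tables were normalised separately. Its log2 change was -0.76 with addback (SE 0.07; limma adjusted p = 9.13e-06) and 0.25 in the lines (SE 0.11; limma adjusted p = 0.329). Rrp9 fell from 57.3, 54.3 and 58.2 CPM to 33.2, 31.8 and 36.5 CPM (-0.73; limma adjusted p = 7.91e-05). Fbl fell from 20.7, 18.2 and 21.8 CPM to 11.9, 13.4 and 12.5 CPM (-0.64; limma adjusted p = 0.00119), and in the lines it was at 21.3, 15.9, 16.2 and 14.6 CPM for RP against 18.4, 20.1, 17.8 and 20.1 CPM for RPM. Nop56, the partner of Nop58, fell from 143, 158 and 150 CPM to 112, 111 and 117 CPM (-0.41; limma adjusted p = 0.001), while its RP (135, 108, 115 and 122 CPM) and RPM (126, 136, 149 and 122 CPM) lines overlapped.

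Other early members fell with addback without a called change in the lines. Nat10 was at 123, 117 and 122 CPM with empty vector and 63.4, 61.1 and 61 CPM with addback (-0.96; limma adjusted p = 2.46e-06). Utp20 was at 156, 160 and 156 CPM and then 95.5, 89.3 and 58.5 CPM (-0.98; limma adjusted p = 0.000499), with addback replicate 3 well below the other 2. Over the 42 members, that replicate was the lowest addback library for 14 and the highest for 18. In UTP-B, Wdr36 was at 100, 101 and 96.0 CPM and then 58.5, 57.8 and 59.9 CPM (-0.75; limma adjusted p = 1.56e-05). In UTP-A, Wdr43 was at 113, 118 and 119 CPM and then 74.5, 71.4 and 69.3 CPM (-0.69; limma adjusted p = 2.69e-05). These 4 genes had no overlap between the groups. Heatr1, which had the largest difference of UTP-A in the lines, fell from 104 ± 5.23 to 74.1 ± 15.3 CPM (-0.50; limma adjusted p = 0.0116). Its addback replicate 3 was also the lowest, at 56.8 CPM. By complex, 4 of 6 UTP-A, 5 of 6 UTP-B and 4 of 5 enzyme genes fell. Of the 4 genes of the MPP10 complex and UTP3, 1 fell, Imp4 (-0.26; limma adjusted p = 0.0237), a share near the 25.5% of all genes called lower.

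Rrp7a went the other way. It was at 25.4, 24.0 and 28.1 CPM with empty vector and at 34.2, 37.6 and 32.3 CPM with addback, with no overlap (0.41, SE 0.10; limma adjusted p = 0.00737). The other 8 members of its group had values of -0.20 or lower, and 7 of them fell. It shares 12.5% of its exon bases with Serhl, so its reads may include reads of that gene.

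Of the 8 late factors, 7 fell with addback. Pno1 went from 83.2, 79.6 and 69.8 CPM to 35.8, 37.2 and 46.8 CPM (-0.94; limma adjusted p = 8.57e-05). Bysl went from 48.7, 44.0 and 49.5 CPM to 35.3, 24.3 and 29.0 CPM (-0.68; limma adjusted p = 0.00164). Smaller changes were those of Riok2, from 51.2, 51.1 and 48.5 CPM to 38.0, 36.5 and 37.7 CPM (-0.42; limma adjusted p = 0.00159), and of Tsr1, from 66.3, 63.4 and 64.6 CPM to 55.3, 47.4 and 45.5 CPM (-0.39; limma adjusted p = 0.00531). All of these groups were free of overlap. Nob1 went from 57.3, 58.5 and 52.4 CPM to 39.5, 43.7 and 50.2 CPM (-0.33; limma adjusted p = 0.0208), also without overlap. The exception was Riok1, at 67.6, 66.3 and 62.3 CPM with empty vector and 70.8, 67.6 and 71.5 CPM with addback, where addback replicate 2 lay barely above the highest empty vector library (0.10; limma adjusted p = 0.31).

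With addback, 27 to 36 members were called when 1 library was left out, against 33 with all libraries. Over all 14056 genes, 3320 to 4575 were called higher and 2846 to 4460 lower in those fits. Calls of 7 members were lost in such fits (limma adjusted p in brackets). Wdr75 was lost without empty vector replicate 2 (0.08), and Heatr1 (0.0524), Noc4l (0.0552) and Bms1 (0.0512) were lost without empty vector replicate 1. Imp4 was lost without empty vector replicate 1 (0.095), empty vector replicate 3 (0.0928) or addback replicate 2 (0.0847). Nop14 was lost without empty vector replicate 1 (0.102), empty vector replicate 2 (0.0642) or addback replicate 2 (0.0831), and Nob1 without empty vector replicate 1 or 2 or addback replicate 1 or 2 (0.0604 to 0.083). Imp3 (0.0445), Krr1 (0.0478) and Emg1 (0.0306) gained a call without addback replicate 3. None of the 12 called members with the largest changes is among these.

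**Figure D3:**
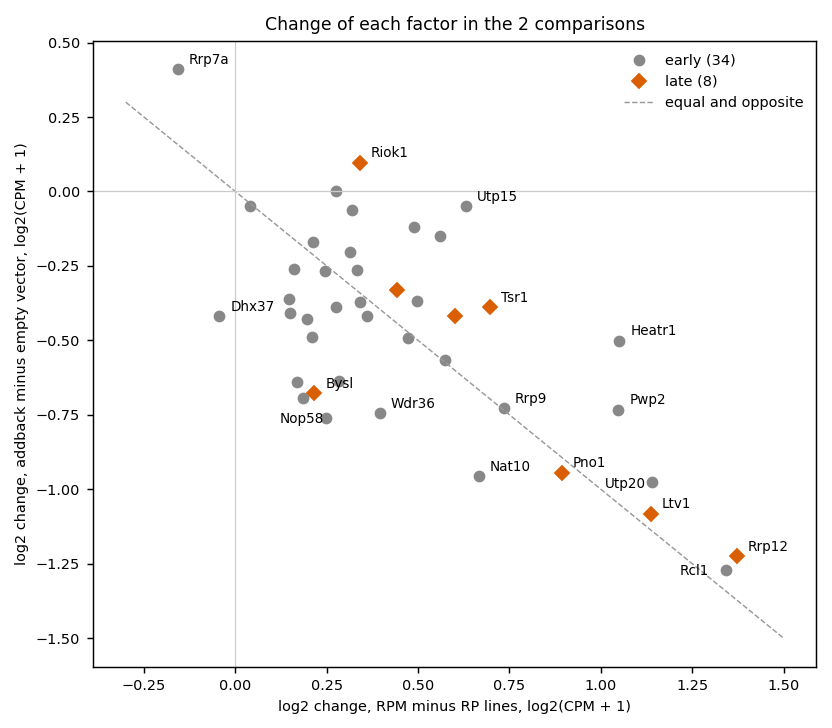
Log2 change with addback (vertical axis) against log2 change in RPM minus RP lines (horizontal axis), both on the log2(CPM + 1) scale, for the 34 early and 8 late members; the dashed line marks equal and opposite changes. Rrp12, Ltv1 and Rcl1 sit at the lower right, Utp15 and Heatr1 above the line, and Nop58 and Wdr43 below it.

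Across the 42 members the changes in both comparisons were inversely related, with a Pearson r of -0.68 and a Spearman rho of -0.46. Without the 4 members called in the lines r was -0.47 over 38 genes. These are descriptions across genes, which are not independent replicates, and the empty vector cells are of the same line as RPM replicate 2. The difference between the comparisons, (RPM minus RP) minus (empty vector minus addback), was tested for each gene by limma with weights by experiment over 13528 genes, of which 15.1% were called. It was called for 1 member, Nop58, whose fall with addback was larger than its difference between the lines (-0.51, SE 0.13; limma adjusted p = 0.0159). Utp15 of UTP-A had the largest value in the other direction, 0.58 (limma adjusted p = 0.0513): it was at 54.4, 48.3, 39.9 and 57.0 CPM in RP, 98.3, 81.9, 61.4 and 71.7 CPM in RPM, 75.7, 72.2 and 69.8 CPM with empty vector and 69.7, 74.3 and 66.4 CPM with addback. Its genotypes did not overlap, its addback groups did. Utp15 passed without RPM replicate 3 (limma adjusted p = 0.0341) and without addback replicate 3 (0.0356). Over the set, 22 members had a positive and 20 a negative difference, with a median of 0.01.

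Early and late factors were compared by their mean log2(CPM + 1) within each library, as a description with no test. The late minus early difference was -0.44, -0.50, -0.49 and -0.37 in RP replicates 1 to 4 and -0.09, -0.16, -0.22 and -0.11 in RPM replicates 1 to 4. Late factors were thus closer to early ones in every RPM line than in any RP line, and the group means (-0.45 and -0.15) differed by 0.30. With empty vector the difference was -0.0018, -0.00047 and -0.095, and with addback it was -0.17, -0.30 and -0.21, a shift of -0.19. The median log2 change was 0.65 for the 8 late and 0.32 for the 34 early members in the lines, and -0.55 and -0.41 with addback. Called members were 2 of 8 late and 2 of 34 early in the lines, and 7 of 8 and 25 of 34 lower with addback. Over all genes, 0.209% were called higher in the lines and 25.5% lower with addback. The contrast depends on where 3 factors that act at the border are placed: with Pno1, Bysl and Rrp12 counted as early, the shift was 0.20 between the genotypes and 0.045 after addback. The mean level of the early factors was also higher in every RPM line (6.04 to 6.20) than in any RP line (5.57 to 5.84).

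**Figure D4:**
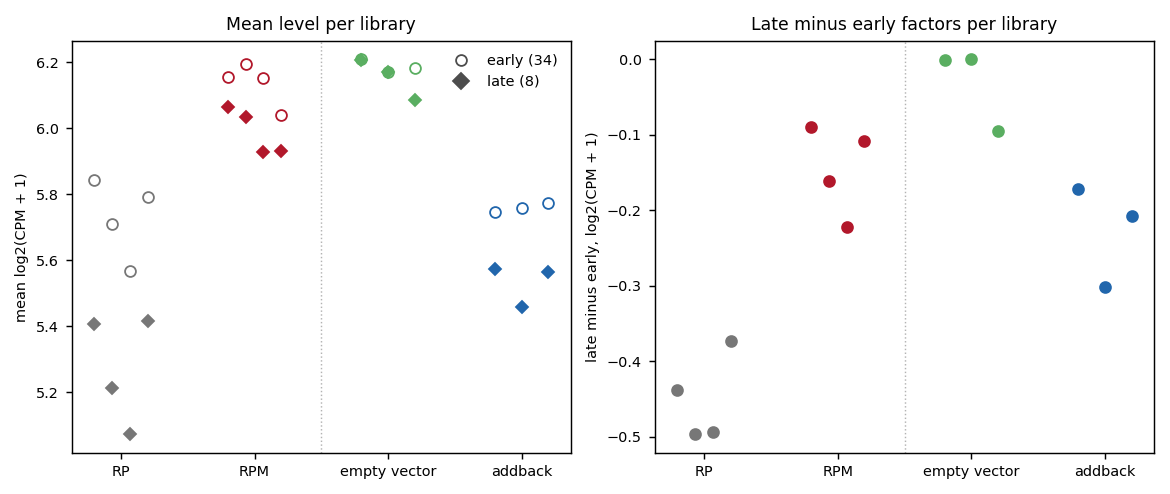
Mean log2(CPM + 1) of the 34 early and the 8 late members in each of the 14 libraries, by group (left), and late minus early in each library on the same scale (right). Late means lie at 5.07 to 5.42 in RP lines and 5.93 to 6.07 in RPM lines, a wider step than that of the early means.

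Correlations between members were taken across the lines. The median over all 861 pairs of members was 0.57 across the 8 lines and 0.21 after the group means were removed. These are descriptions over libraries that share their depth and scaling, and pairs of other genes were not examined. RP replicate 3 was the lowest RP line for 22 members and RP replicate 2 for 12. Summed proliferation genes were at 3380 CPM in RP replicate 2, the lowest of all libraries, and at 4742 CPM in RP replicate 3, within the range of the other lines. Over the groups these genes stood at 3380 to 5298 CPM for RP against 4114 to 6229 CPM for RPM, with 0 of 12 called; their part in the result was not tested.

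The members were also split by CACGTG in their window, as a description with no test. The 11 with the motif had a median of 0.47 in the lines and -0.42 with addback, and 9 of them fell with addback. The 24 without it had medians of 0.32 and -0.39, and 16 of them fell. The 7 members with no window had medians of 0.34 and -0.56, and all 7 fell. Over all genes, 25.5% were called lower with addback. Of the 4 members called in the lines, Ltv1 had the motif, Rcl1 and Pwp2 did not, and Rrp12 had no window.

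A list of 29 other factors of small subunit assembly gave the background of the pathway outside the 42 members. In the lines 0 of 29 were called by limma, where 0.209% of all genes were called higher and 0.125% lower. The median log2 difference of the 29 was 0.22 there. With addback 13 fell and 1 rose, where 25.5% of all genes were called lower and 27.7% higher. The median of the 29 was -0.20 with addback, so both medians had the sign of the members' medians and were smaller in size. The following were chosen after their values were seen. Utp11, a processome protein, fell from 86.3 to 41.8 CPM in the mean with addback (-1.05; limma adjusted p = 0.000145), with a difference of 0.07 in the lines. Pdcd11, a scaffold that takes part in both subunits, fell from 127 to 77.7 CPM (-0.71; limma adjusted p = 2.25e-05). The kinase gene Csnk1e was the one that rose, from 77.7 to 116 CPM (0.57; limma adjusted p = 0.000926). The helicase gene Ddx10 came nearest to a call in the lines, at 32.2 CPM for RP against 56.3 CPM for RPM (0.79; limma adjusted p = 0.0609).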

How the data were processed

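The 42 members and all lists were chosen with earlier results of these data known. Per the submitters' processing notes the tools were bcl2fastq 1.8.4, TopHat2 2.1.0, HTSeq 0.6.1 and edgeR, with build mm10; no source used here gives the annotation release, the use of strand or the rule by which genes were kept. Per the file headers, the authors deposited 2 separately normalised tables (14360 genes of the lines, 14056 of the addback experiment) with a TMM-normalised CPM signal per library. Per the file headers they also hold RPKM, log2 fold changes, p-values with FDR, and a score of -1, 0 or 1 for the authors' call, which were only described. Every CPM value was a whole multiple of 1 read within 0.01 of a read (100% of values), so read counts were recovered from the deposited CPM for edgeR and DESeq2 as alternatives. On these counts edgeR called 1 and DESeq2 14 members in the lines, and with addback 33 and 31. Over all genes with addback, edgeR called 3893 higher and 3537 lower, and DESeq2 3537 and 3168.

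The design named edgeR for raw counts; as the values were normalised, limma-trend (limma 3.58.1, R 4.3.3) was fitted on log2(CPM + 1) of all listed genes, each comparison on its own libraries with no covariate, two-sided, at a Benjamini-Hochberg adjusted p under 0.05. A fold change on this scale understates changes of low genes. The difference of the comparisons used all 14 libraries with array weights by experiment. edgeR 4.0.16 and DESeq2 1.42.0 were the other tools. The limma fits of the lines and of the addback experiment were tested on simulated counts with a known fold change. The fit of the difference of the comparisons was not. Groups came from sample titles; every member could be named, with values per library for all late factors, the U3 snoRNP proteins and the 12 called members with the largest change. Alternatives were other pseudocounts (0.25 and 4), a minimum mean of 5 CPM, no TMM factor, centring, other tools, the replicate number as a block, leaving out each library, and, added after the data were seen, leaving out RP replicate 4 and RPM replicate 1 together. Symbols were matched to GENCODE vM21 on GRCm38 for coordinates. Of 46 samples, the 32 of tumours were not analysed here.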

Additional observations from a re-analysis of the deposited data

Results flagged for a closer look

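In RPM lines, 3 members had a library whose gap to its nearest neighbour took up more of the group's range than Dixon's 95% critical value for 4 samples allows. Nol11 was at 84.6 CPM in RPM replicate 1, with the other lines at 55.4 to 59.5 CPM. Utp3 was at 51.2 CPM in RPM replicate 4, below the others at 63.4 to 64.8 CPM. Tsr1 was at 95.6 CPM in RPM replicate 3, above the others at 78.5 to 81.2 CPM. Of 84 groups of 4 lines examined 3 stood out, and chance gives about 1 in 20, or 4.2 of them.

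Nop58 differed between the comparisons by -0.51 on the log2(CPM + 1) scale (limma adjusted p = 0.0159), and its difference was called in 20 of 20 alternatives, with adjusted p from 0.00599 to 0.0456.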

How the results depend on the processing

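In the lines, 4 members were called; DESeq2 called 14, edgeR's quasi-likelihood test 1, and leaving out 1 line at a time gave 0 to 7. With the replicate number as a block, limma called 0 members (18 at an unadjusted p under 0.05) and 0 of all 14360 genes (2463 unadjusted). Deviations of same-numbered libraries correlated at 0.42, 0.05, 0.01 and 0.13 in the lines and 0.06, 0.044 and 0.10 in the addback experiment. Different-numbered libraries correlated at -0.30 to 0.20 in the lines and -0.094 to 0.037 in the addback experiment. These values do not settle whether the replicate numbers pair the samples. Without both RP replicate 4 and RPM replicate 1, limma called 3. The higher and lower calls over all genes of the lines were 30 and 18 by limma, 350 and 308 by DESeq2, and 1 and 2 by edgeR. With addback, 27 to 36 members were called when 1 library was left out, 28 without the TMM factor and 33 with the replicate block; without the TMM factor the split over all genes was 4507 higher and 2919 lower, against 3896 and 3582. The difference between the comparisons called 1 member, 2 with a pseudocount of 0.25, 2 with the replicate block, 3 with voom weights and 1 to 3 when 1 library was left out. The shift of late against early factors was 0.30 in the lines (0.29 to 0.33 when 1 library was left out; 0.20 with Pno1, Bysl and Rrp12 as early) and -0.19 with addback (-0.23 to -0.16; 0.045 with those 3 as early). The cause of the changes above was not tested. Of 1362 results of single members under an alternative, 1289 kept their side of the threshold, 51 lost and 22 gained a call. Among the same 1362 results, 12 had another sign than in the main fit, none of them called. For the difference between the comparisons, these counts cover only some members. They leave out Heatr1 and Wdr43, which each gained a call in 1 of 20 alternatives there. Groups of 4 and 3 libraries limit both comparisons; the effect of depth was not tested.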
